A study of Homo sapiens with 24 samples.

Results

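A set of 9 genes that rose steeply when MIST1 was induced in Panc-1 pancreatic carcinoma cells were followed across the 6 groups of the experiment. They are CRYM, C2orf88, ACBD7, SMPDL3B, DGKA, AQP3, TIFA, CA5B and GIPC3, 9 of the 14388 genes in any of the 3 deposited tables. They were selected on their large log2 change with doxycycline (Dox) in Tet-MIST1 cells, so their values in that comparison are given as a description without a test. The rule of that choice uses no Tet-One or Tet-PTF1a value. Panc-1 is a long-established culture of human tumor cells from a ductal carcinoma of the pancreas, and the derived lines were single clones picked under puromycin once the Tet-One plasmid had been introduced. Tet-One cells carried the empty plasmid, Tet-MIST1 cells the plasmid with a myc-tagged rat MIST1 reading frame, and Tet-PTF1a cells the plasmid with a myc-tagged mouse PTF1a reading frame. Polyadenylated RNA was sequenced from 4 Control libraries without Dox and 4 libraries after 72 h in 1 µg/ml Dox per line, 24 libraries in all. Cells were at passage 32 in Tet-One and Tet-PTF1a and at passage 33 in Tet-MIST1, so effects of the line, its clone, its passage and any separate sequencing cannot be told apart.

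MIST1, encoded by BHLHA15, is a basic helix-loop-helix transcription factor of secretory cells. In pancreatic acinar cells it raises the genes of the secretory machinery and of regulated exocytosis. PTF1a, a factor of the same class, specifies the acinar lineage and switches on the digestive enzyme genes. Both bind short DNA elements called E boxes, which read CANNTG. Both factors are typically silent in ductal carcinoma cells, and the question behind the experiment was which genes respond when one of them is put back. The 9 genes have dissimilar roles. CRYM encodes µ-crystallin, a cytosolic protein that binds thyroid hormone and reduces ketimines. ACBD7, SMPDL3B and DGKA act on lipids. AQP3 and CA5B move or convert small molecules. C2orf88, TIFA and GIPC3 encode adaptor or anchoring proteins.

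The promoters are shown first because E boxes are the elements that MIST1 binds. RefSeq promoter windows of 300 bases, from 250 before to 50 after a start site, were available for 7 of the 9 genes on GRCh38.p14, with 2 start sites for C2orf88 (named AKAP19 in RefSeq), 5 for DGKA and 1 for each of ACBD7, SMPDL3B, AQP3, TIFA and CA5B. CRYM and GIPC3 had no entry. Both strands were searched for CANNTG and for 3 forms of it. The form CAGCTG reads the same on both strands. So does the second form, CATATG. The third form, read as CATCTG on one strand, differs on the other. All 3 are CANNTG, so each match to a form is also a match to the general element. Below, 4 windows (GRCh38.p14) are printed 5′ to 3′ with every CANNTG in capitals. The first start of C2orf88 is shown for its cluster of E boxes, the start of TIFA and the fourth start of DGKA for CAGCTG, and the start of AQP3 as the case without an E box.

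C2orf88 start 1 (chr2:190137527-190137826, plus strand): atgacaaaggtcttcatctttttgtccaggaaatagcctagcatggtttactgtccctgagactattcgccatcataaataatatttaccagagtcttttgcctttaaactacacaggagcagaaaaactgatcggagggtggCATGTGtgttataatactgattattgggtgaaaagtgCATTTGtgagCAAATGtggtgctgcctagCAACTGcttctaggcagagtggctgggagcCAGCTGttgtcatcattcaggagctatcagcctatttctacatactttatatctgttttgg
TIFA start 1 (chr4:112285855-112286154, minus strand): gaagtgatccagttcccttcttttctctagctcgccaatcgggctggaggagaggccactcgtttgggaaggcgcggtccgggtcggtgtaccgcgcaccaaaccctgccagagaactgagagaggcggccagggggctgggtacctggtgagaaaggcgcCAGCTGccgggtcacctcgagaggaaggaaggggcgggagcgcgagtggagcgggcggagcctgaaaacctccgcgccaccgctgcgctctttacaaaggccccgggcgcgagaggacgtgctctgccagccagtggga
DGKA start 4 (chr12:55931813-55932112, plus strand): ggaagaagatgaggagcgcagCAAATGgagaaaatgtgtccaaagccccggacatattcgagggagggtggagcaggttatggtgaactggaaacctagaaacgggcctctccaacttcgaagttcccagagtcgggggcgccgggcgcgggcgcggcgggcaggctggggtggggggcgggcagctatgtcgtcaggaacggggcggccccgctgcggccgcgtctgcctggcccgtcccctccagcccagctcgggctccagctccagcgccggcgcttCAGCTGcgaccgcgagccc
AQP3 start 1 (chr9:33447544-33447843, minus strand): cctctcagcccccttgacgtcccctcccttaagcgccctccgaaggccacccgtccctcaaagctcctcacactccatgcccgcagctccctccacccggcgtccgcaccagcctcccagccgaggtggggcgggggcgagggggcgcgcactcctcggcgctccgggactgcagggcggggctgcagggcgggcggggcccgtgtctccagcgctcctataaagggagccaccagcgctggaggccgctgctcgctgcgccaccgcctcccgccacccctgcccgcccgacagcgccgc

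The C2orf88 window held 5 E boxes within 107 bases of the start, the nearest of them a CAGCTG 11 bases upstream of it. TIFA held a single E box, a CAGCTG 89 bases upstream. In DGKA a CAGCTG lay 31 bases downstream of the fourth start, which is 901 bases inside the gene as deposited. A CATATG lay 16 bases downstream of the second start. The AQP3 window held no E box at all. The form CAGCTG was thus present for 3 of the 7 genes, in 3 of their 12 windows, and in 17.9% of the 35116 promoters of the same length. CATATG was present for 1 gene, DGKA, in 1 of the 12 windows, against 3.04% of promoters. CATCTG was present for 1 gene, also in 1 of the 12 windows, at the second start of C2orf88, against 14.7%. Any CANNTG was present in 9 of the 12 windows and for 6 of the 7 genes, against 68.7% of promoters. In 1100-base windows at the deposited starts (hg19, 1000 bases before to 100 after), AQP3 held CAGCTG at 283, 635 and 841 bases upstream. In these longer windows CAGCTG was again present for 3 of the 7 genes, here C2orf88, AQP3 and TIFA, and in 41.8% of 14256 genes. A match is a description of the letters and not of binding.

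**Figure D1:**
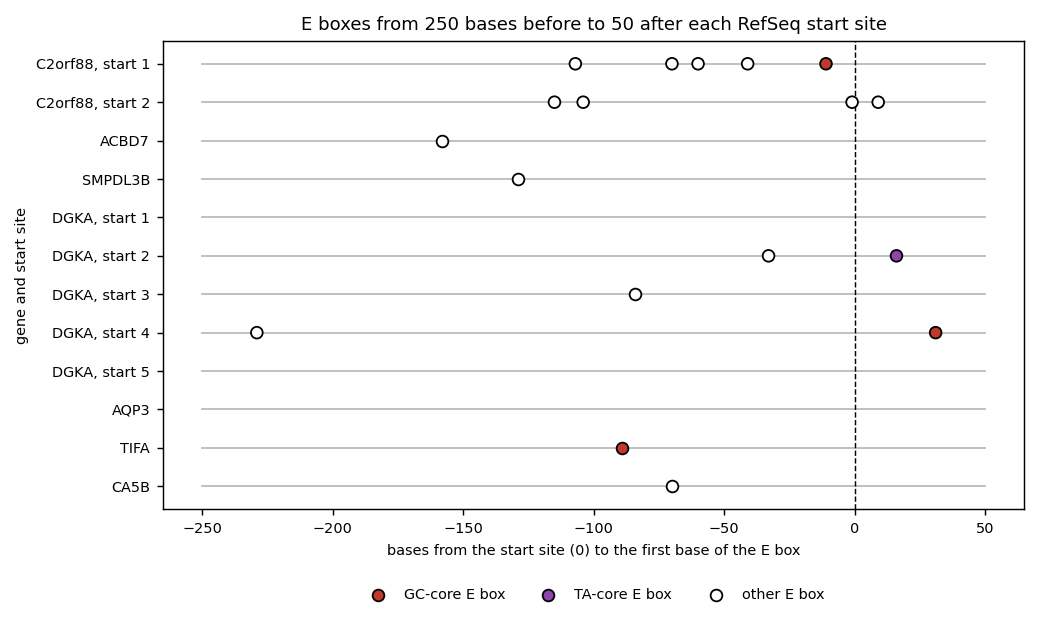
E boxes (circles) along 12 RefSeq promoter windows of 7 genes. The horizontal axis gives bases from the start site to the first base of the E box, each line is the window of one start site, red marks CAGCTG, purple CATATG and white any other CANNTG. C2orf88 has the most E boxes, and AQP3 and 2 of the 5 DGKA starts have none.

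The libraries held from 17210989 to 43018494 counts, with Tet-PTF1a libraries spread over that whole range and the other lines at 33402628 or more. The 7 ductal carcinoma markers KRT7, KRT8, KRT18, KRT19, SOX9, EPCAM and VIM exceeded 1 CPM in every group. Of 10 acinar markers only PRSS1 was analysed, at 0.0549 ± 0.0276 CPM in Tet-PTF1a Control and 3.05 ± 0.264 CPM in Tet-PTF1a Dox (SD, n = 4). Of 12 markers of fibroblasts, leukocytes and endothelial cells, COL1A1, PDGFRB and CD68 were analysed. CD68 was at 254 ± 2.38 CPM in Tet-MIST1 Control and 212 ± 18.8 CPM in Tet-MIST1 Dox, and the summed fibroblast markers ran from 63.2 to 68.6 CPM and from 64.4 to 77.8 CPM, and their part in the changes of the 9 genes was not tested. The induced MIST1 has a rat sequence, and BHLHA15 was not analysed here in Tet-MIST1, so the induction itself was not checked in these libraries. In Tet-PTF1a, counts at the human PTF1A gene were 0 to 2 in Control and 53 to 168 with Dox. The plasmid holds a mouse reading frame, and whether these reads came from it or from the human gene was not tested. Tet-One Dox replicate 1 stood apart, with an SD of 0.580 on the log2 scale from the other libraries of its group, against 0.205 to 0.230 for the other Tet-One Dox libraries and 0.106 to 0.137 for Tet-One Control. Calls in Tet-One, and on the difference between the Tet-PTF1a and Tet-One responses, are given with and without it. Changes without it are given for some genes only. In Tet-MIST1 Dox the same SD was 0.232, 0.167, 0.116 and 0.114 for replicates 1 to 4. In bulk RNA, fewer expressing cells and less RNA per cell cannot be told apart. The study's methods call the replicates biological, while nothing in the sample labels says that they came from separate cultures or says how separate these were. The p-values measure the spread between these libraries.

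All 9 genes were higher in every Tet-MIST1 Dox library than in any of the other libraries in which they were analysed. Of all genes tested in Tet-MIST1, 14.3% had all Dox libraries higher than all Control libraries of that line, and 26.8% did not overlap in one direction or the other. The share of all genes whose Tet-MIST1 Dox libraries also exceeded every library of the other lines was not counted. The fold of mean CPM, Dox over Control, ran from 2.49 for CA5B to 9.31 for CRYM with a median of 3.55. Levels are in CPM, the counts in a library scaled to a common depth by TMM over the 24 libraries. By log2 change the 9 genes ranked between 3 and 26 of the 13623 genes tested in Tet-MIST1. Across all of those genes, 20.6% were called at a false discovery rate (FDR) under 0.05, 11.9% higher and 8.77% lower, and the 9 all belonged to the higher ones. Since this comparison chose them, nothing is read from these counts. Against the next highest group, which differed between genes, mean levels were higher by 1.76-fold (TIFA) to 9.31-fold (CRYM). For CRYM this leaves out Tet-PTF1a, where it was not analysed.

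**Figure D2:**
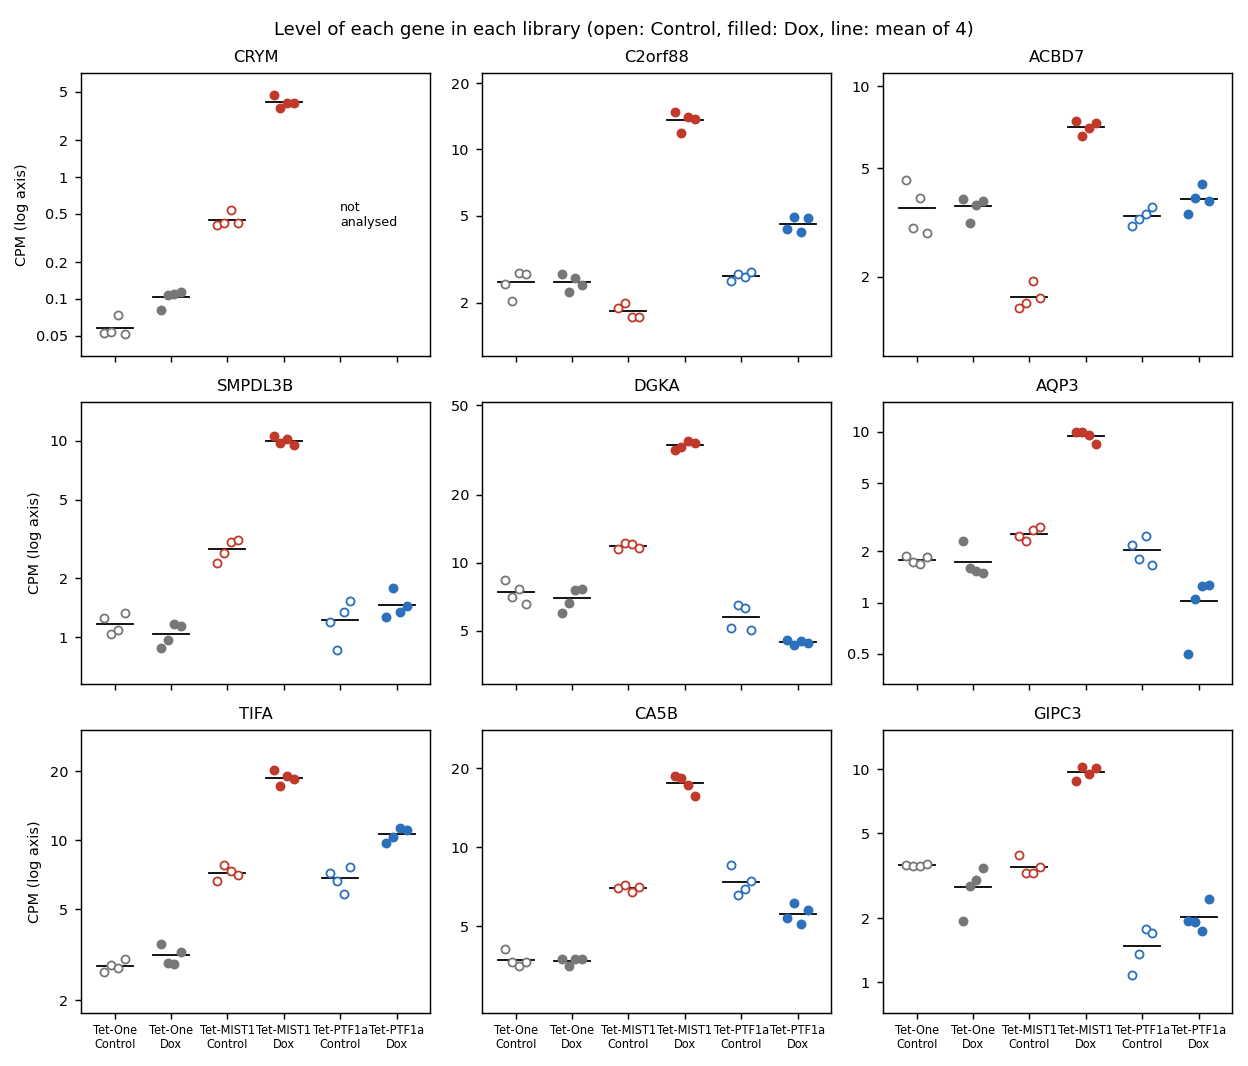
Level of each gene in each of the 24 libraries, as CPM on a log axis, with open circles for Control, filled circles for Dox and a line at the mean of 4. The red filled circles (Tet-MIST1 Dox) lie above all other circles in each of the 9 panels, and CRYM was not analysed in Tet-PTF1a.

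CRYM (chr16:21269839-21314457, minus strand, hg19, 10 listed exons) was close to the limit of detection in Tet-One, the only other line in which it was analysed. Counts were 16, 18, 23 and 15 in the 4 Tet-MIST1 Control libraries and 187, 140, 152 and 136 with Dox. This was 0.444 ± 0.0631 CPM rising to 4.13 ± 0.444 CPM (SD, n = 4), a log2 change of 3.07 (SE 0.14). In Tet-One the counts were 2, 2, 3 and 2 in Control and 3, 4, 4 and 4 with Dox. The ratio of the summed Tet-One counts, Dox over Control after scaling, was 1.74 with a 95% counting interval of 0.714 to 4.52, so no difference was detectable at this depth, although the scaled level of each Dox library exceeded each Control library. CRYM was too low for the test in Tet-One and was not analysed here in Tet-PTF1a. The level in Tet-MIST1 Control was itself above Tet-One Control, with 72 against 9 summed counts, a scaled ratio of 8.04. This ratio is a description only, since the Tet-MIST1 Control libraries entered the comparison that chose the genes. Both ratios were scaled by total counts, and the counting interval for Tet-One covers counting error only. In Tet-MIST1, CRYM met the filter of 0.5 CPM in at least 4 libraries through its Dox libraries, with Control at 0.403 to 0.538 CPM.

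Among the genes of lipid metabolism, DGKA (chr12:56324946-56347807, plus strand, hg19) makes phosphatidic acid from diacylglycerol. Its Tet-MIST1 Control libraries were at 11.5, 12.2, 12.1 and 11.6 CPM and its Dox libraries at 31.5, 32.6, 34.6 and 34.1 CPM. The groups were narrow and far apart, with a log2 change of 1.48 (SE 0.0527). In Tet-PTF1a the Control libraries were at 5.14, 6.51, 6.27 and 5.05 CPM and the Dox libraries at 4.55, 4.34, 4.49 and 4.42 CPM, the opposite direction and without overlap. Among these Control libraries, the deeply sequenced replicates 1 and 4 were the lower ones, and the part of depth was not tested. Tet-One libraries ran from 6.54 to 8.35 CPM in Control and from 5.98 to 7.65 CPM with Dox and overlapped.

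SMPDL3B (chr1:28261466-28285668, plus strand, hg19) encodes a lipid-anchored relative of acid sphingomyelinase at the cell surface. With Dox its Tet-MIST1 level went from 2.39, 2.70, 3.06 and 3.14 CPM to 10.5, 9.76, 10.3 and 9.56 CPM, a log2 change of 1.81 (SE 0.0871). Tet-MIST1 Control already exceeded every library of the other lines, which lay between 0.868 and 1.78 CPM. ACBD7 (chr10:15117474-15130775, minus strand, hg19), a small protein with an acyl-CoA binding domain, showed the reverse baseline. Its Tet-MIST1 Control libraries, at 1.53, 1.60, 1.92 and 1.67 CPM, were the lowest of the 6 groups. With Dox they reached 7.43, 6.56, 7.0 and 7.32 CPM, a log2 change of 2.03 (SE 0.0917), while the other 4 groups shared a band with means from 3.32 CPM in Tet-PTF1a Control to 3.86 CPM in Tet-PTF1a Dox. Thus ACBD7 passed from below that band to above it.

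AQP3 (chr9:33441152-33447631, minus strand, hg19) encodes a channel for water and glycerol. Its libraries were at 2.44, 2.30, 2.64 and 2.75 CPM in Tet-MIST1 Control and 9.94, 10.0, 9.51 and 8.42 CPM with Dox, a log2 change of 1.88 (SE 0.0871). In Tet-PTF1a the Control libraries were at 2.18, 1.79, 2.44 and 1.66 CPM and the Dox libraries at 0.499, 1.05, 1.25 and 1.27 CPM. The lowest of these Dox libraries, replicate 1, rested on 9 counts. CA5B (chrX:15756412-15805748, plus strand, hg19) encodes a mitochondrial carbonic anhydrase. It rose in Tet-MIST1 from 7.02, 7.19, 6.78 and 7.08 CPM to 18.6, 18.4, 17.3 and 15.7 CPM, a log2 change of 1.31 (SE 0.0667). In Tet-PTF1a it went the other way, from 8.54, 6.56, 6.94 and 7.44 CPM to 5.38, 6.12, 5.08 and 5.75 CPM, with no overlap. A related pseudogene, CA5BP1, lies 34.9 kb away on the same strand and was at 11.0 ± 0.422 CPM in Tet-MIST1 Control and 12.3 ± 0.665 CPM with Dox, so how reads were divided between the copies is uncertain.

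Among the adaptor and anchoring proteins, C2orf88 (chr2:191002486-191068210, plus strand, hg19) encodes smAKAP, which tethers protein kinase A to membranes. It had the second largest change of the 9 genes, from 1.89, 2.00, 1.73 and 1.72 CPM in Tet-MIST1 Control to 14.8, 11.9, 14.1 and 13.7 CPM with Dox, a log2 change of 2.85 (SE 0.0930). Tet-PTF1a libraries were at 2.53, 2.71, 2.63 and 2.78 CPM in Control and 4.33, 4.93, 4.19 and 4.86 CPM with Dox. The Tet-PTF1a Dox libraries lay above their Control libraries and far below Tet-MIST1 Dox. TIFA (chr4:113196782-113207059, minus strand, hg19) encodes the adaptor that joins the kinase ALPK1 to TRAF6 and NF-κB signaling. It was at 6.64, 7.82, 7.32 and 7.05 CPM in Tet-MIST1 Control and at 20.2, 17.3, 19.1 and 18.5 CPM with Dox, a log2 change of 1.37 (SE 0.0683). In Tet-PTF1a it was at 7.18, 6.62, 5.84 and 7.65 CPM in Control and 9.76, 10.4, 11.3 and 11.1 CPM with Dox, again separated and upward. Tet-One stayed far below both lines, at 2.65 to 3.02 CPM in Control and 2.89 to 3.53 CPM with Dox.

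GIPC3 (chr19:3585569-3593539, plus strand, hg19) encodes a PDZ-domain adaptor known for its need in hearing. Its Tet-MIST1 libraries went from 3.95, 3.26, 3.25 and 3.47 CPM to 8.80, 10.2, 9.51 and 10.2 CPM, a log2 change of 1.46 (SE 0.0865). Tet-One libraries were at 3.54, 3.51, 3.52 and 3.60 CPM in Control and 1.94, 2.83, 3.02 and 3.45 CPM with Dox, and Tet-PTF1a libraries at 1.08, 1.36, 1.77 and 1.71 CPM and 1.94, 1.92, 1.74 and 2.45 CPM. The Tet-One Dox libraries all lay below the Tet-One Control libraries, by a small margin at the nearest, whereas 2.38% of all genes tested had no overlap between these groups (1.01% with Dox below). The Tet-PTF1a groups were the lowest of the 6 and overlapped each other.

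The order of the groups below Tet-MIST1 Dox differed from gene to gene. For SMPDL3B, DGKA, AQP3 and CRYM (not analysed in Tet-PTF1a) the next highest group was Tet-MIST1 Control. It was Tet-PTF1a Dox for C2orf88, ACBD7 and TIFA, Tet-PTF1a Control for CA5B and Tet-One Control for GIPC3. For C2orf88 the neighbors Tet-PTF1a Control, Tet-One Dox and Tet-One Control overlapped in turn. For ACBD7 the 4 middle groups overlapped in turn, and for SMPDL3B the 4 lowest did. AQP3 in Tet-MIST1 Control overlapped Tet-PTF1a Control, which overlapped Tet-One Control and, through it, Tet-One Dox, while Tet-PTF1a Dox lay apart below. DGKA in both Tet-One groups and Tet-PTF1a Control overlapped in turn, with Tet-PTF1a Dox again apart below. TIFA and CA5B each had Tet-MIST1 Control and Tet-PTF1a Control overlapping, with both Tet-One groups below them. For GIPC3 each of the 5 lower groups overlapped the next in the order Tet-One Control, Tet-MIST1 Control, Tet-One Dox, Tet-PTF1a Dox and Tet-PTF1a Control.

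Dox alone was examined in Tet-One. None of the 8 genes tested was called, and none of the 13428 genes tested was (0%), with 401 genes at an unadjusted p under 0.05 by edgeR's quasi-likelihood test and 0 called by DESeq2. The changes ran from -0.33 for GIPC3 to 0.15 for TIFA on the log2 scale, with a median of -0.03. GIPC3 had the smallest p of them, an unadjusted 0.0680 and FDR 0.897 in the quasi-likelihood test, with a 95% interval of -0.69 to 0.04 from the degrees of freedom of that test. For TIFA the interval was -0.08 to 0.39 and for C2orf88 -0.27 to 0.28. Without Tet-One Dox replicate 1 the GIPC3 change was -0.19 and that of AQP3 moved from -0.05 to -0.21, and again none of the 8 was called. Over all genes tested 1 was then called, and it was not one of the 9.

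In Tet-PTF1a, 6 of the 8 genes analysed changed with Dox, 3 higher and 3 lower, where 48.2% of all 14053 genes tested changed (23.8% higher and 24.4% lower). With library size alone as the scaling, the split over all genes was 4392 higher and 2698 lower against 3344 and 3431, and the 6 genes kept their calls and directions. C2orf88 rose by 0.79 (SE 0.11) on the log2 scale (FDR 3.37e-08 by the edgeR quasi-likelihood test, adjusted after Benjamini and Hochberg). TIFA rose by 0.62 (SE 0.0778, FDR 2.54e-09). GIPC3 rose by 0.50 (SE 0.17, FDR 0.0105), although its groups overlapped. This last call was lost with DESeq2, with all 24 libraries in one fit, without Control replicate 1 (log2 change 0.32) and without Dox replicate 4 (0.35).

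The genes that fell in Tet-PTF1a were AQP3, CA5B and DGKA. AQP3 changed by -0.87 (SE 0.19) on the log2 scale (FDR 1.01e-04 in the same test), and without its low Dox replicate 1 by -0.70. CA5B changed by -0.42 (SE 0.0893, FDR 8.65e-05) and DGKA by -0.32 (SE 0.10, FDR 0.00702). ACBD7 at 0.22 (SE 0.11, FDR 0.0984, interval -0.00788 to 0.45) and SMPDL3B at 0.20 (SE 0.19, FDR 0.368, interval -0.17 to 0.57) did not pass. Dox and Control libraries did not overlap for C2orf88, TIFA, DGKA, AQP3 and CA5B, 5 of 8, against 42.1% of all genes tested (20.3% with Dox above and 21.8% with Dox below). The median log2 change of the 8 genes was 0.21 and that of all genes 0.00. By edgeR's estimate of biological variation Tet-PTF1a had the least spread between libraries, 2.80% against 6.58% in Tet-MIST1 and 14.4% in Tet-One. The Tet-One value includes Dox replicate 1, which stood apart, and no value without it is given. By distance from the others of their group, Tet-MIST1 Control libraries (SD 0.0830 to 0.0974 on the log2 scale) were as close together as Tet-PTF1a libraries (0.0915 to 0.113).

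**Figure D3:**
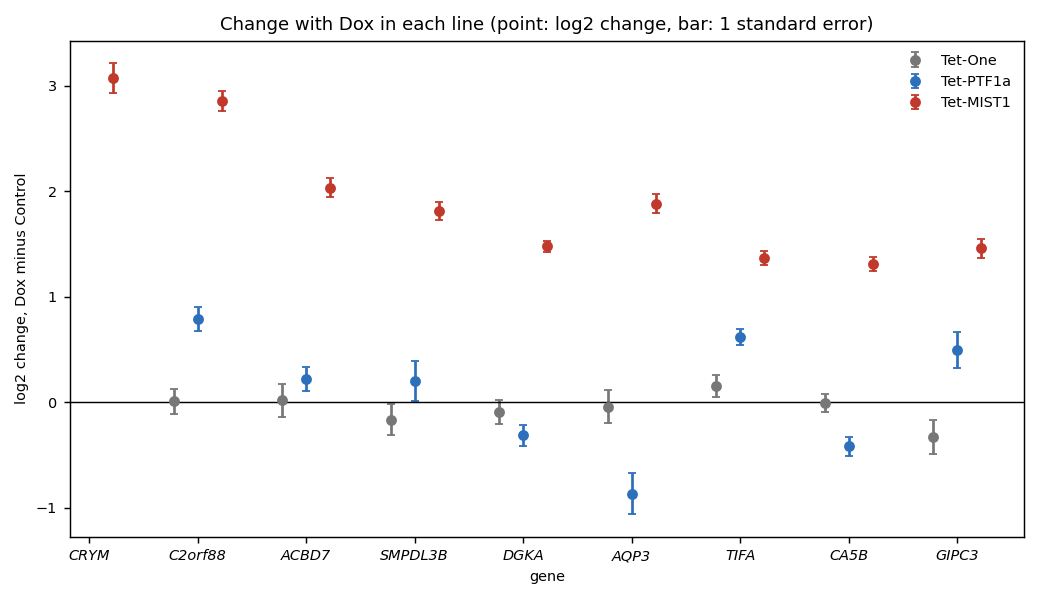
Change with Dox of each gene in Tet-One, Tet-PTF1a and Tet-MIST1, as log2 change (points) with 1 standard error (bars). Tet-MIST1 changes lie between 1.31 and 3.07, Tet-PTF1a changes on both sides of 0 between -0.87 and 0.79, and Tet-One changes between -0.33 and 0.15, and CRYM is drawn only for Tet-MIST1.

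Whether the response to Dox differed between Tet-PTF1a and Tet-One was tested through the interaction term between the 2 factors. It passed for 4 of the 8 genes, where 12.9% of 13506 genes passed (5.52% higher and 7.34% lower in Tet-PTF1a, a split of 746 and 992 that became 943 and 804 with library size alone). The difference was 0.77 (SE 0.14) for C2orf88 (FDR 0.00138 in the quasi-likelihood test), 0.80 (SE 0.25) for GIPC3 (FDR 0.0424), 0.47 (SE 0.13) for TIFA (FDR 0.0249) and -0.39 (SE 0.12) for CA5B (FDR 0.0463). AQP3 at -0.85 (SE 0.28, FDR 0.0540) missed the threshold, as did ACBD7, SMPDL3B and DGKA. The CA5B call was lost with library size alone and with DESeq2, and AQP3 passed with DESeq2. Without Tet-One Dox replicate 1, AQP3 passed too (-0.66, FDR 0.0342), and 5 genes passed where 4146 of all genes did. C2orf88 was the one gene of the 4 that passed in every fit with a library left out. For GIPC3 the difference combined a higher level with Dox in Tet-PTF1a and a lower one in Tet-One, the latter not called by itself. Tet-MIST1 shares no libraries with these lines, and its own changes stand above without a test of the difference, because that comparison chose the genes.

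**Figure D4:**
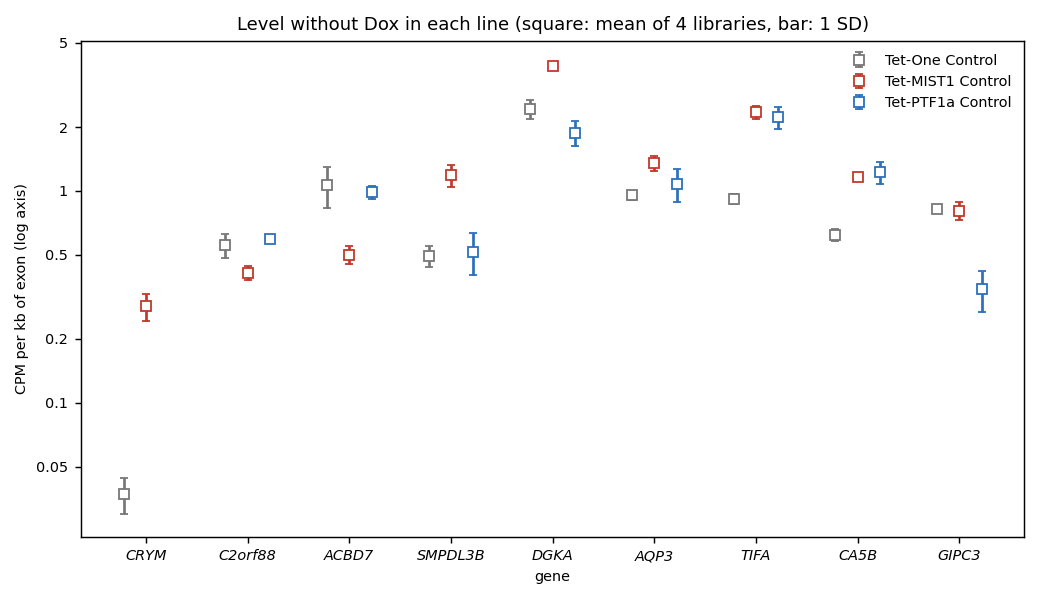
Level of each gene without Dox in the 3 lines, as mean CPM per kb of exon on a log axis (squares) with 1 SD (bars, n = 4). TIFA and CA5B lie lowest in Tet-One, GIPC3 lowest in Tet-PTF1a, and SMPDL3B and DGKA highest in Tet-MIST1.

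Without Dox the 9 genes were expressed at low and unequal levels. Per kb of exon, DGKA was the highest in Tet-One Control at 2.43 ± 0.255 CPM per kb and CRYM the lowest at 0.0370 ± 0.00712 CPM per kb, with the other 7 between 0.493 and 1.06. In Tet-MIST1 Control DGKA was again first, at 3.88 ± 0.121 CPM per kb, and TIFA next, at 2.35 ± 0.160. With Dox the lowest in Tet-MIST1 was ACBD7, at 2.10 ± 0.116 CPM per kb, and DGKA reached 10.9 ± 0.456. In Tet-PTF1a Control TIFA led with 2.22 ± 0.254 CPM per kb, and GIPC3 was lowest with 0.342 ± 0.0748.

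Between the Control libraries of Tet-PTF1a and Tet-One, 4 of 8 genes differed, where 80.1% of 13504 genes did (40.2% higher and 39.9% lower in Tet-PTF1a). TIFA was higher in Tet-PTF1a by 1.27 (SE 0.0932) on the log2 scale (FDR 5.05e-12 in the quasi-likelihood test) and CA5B by 0.99 (SE 0.0853, FDR 1.12e-10). GIPC3 differed by -1.27 (SE 0.13, FDR 2.10e-09) and DGKA by -0.42 (SE 0.0888, FDR 1.32e-04), both lower in Tet-PTF1a. The intervals of the other differences were -0.15 to 0.31 for C2orf88, -0.38 to 0.14 for ACBD7, -0.25 to 0.45 for SMPDL3B and -0.12 to 0.42 for AQP3.

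The Tet-MIST1 Control libraries entered the comparison that chose the genes, and their differences from Tet-One Control are described only. TIFA was higher in Tet-MIST1 by 1.35 (SE 0.0887), SMPDL3B by 1.23 (SE 0.14), CA5B by 0.91 (SE 0.0825), DGKA by 0.68 (SE 0.0753) and AQP3 by 0.50 (SE 0.12) on the log2 scale. GIPC3 was level at -0.02 (SE 0.10), whereas C2orf88 at -0.42 (SE 0.11) and ACBD7 at -1.06 (SE 0.13) were lower. The higher TIFA and CA5B levels were common to Tet-MIST1 and Tet-PTF1a, whose Control groups differed by 0.07 (SE 0.0797) for TIFA and -0.08 (SE 0.0769) for CA5B, Tet-MIST1 minus Tet-PTF1a. The large fold of ACBD7 and C2orf88 with Dox was therefore measured from the lowest baseline of the 3 lines, and that of SMPDL3B and DGKA from the highest.

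Across the 24 libraries each of the 8 genes present in all tables was compared with the mean of the other 7 (standardized log2 CPM). Pearson's r ran from 0.56 for ACBD7 to 0.94 for SMPDL3B, and Spearman's rho from 0.19 for GIPC3 to 0.87 for SMPDL3B. The libraries share lines and conditions, and the 4 Tet-MIST1 Dox libraries, highest for all 8 genes, weigh more in r than in the ranks of rho. The Tet-MIST1 libraries entered the comparison that chose the genes. The correlations therefore follow in part from that choice, here and for the similar genes below, and nothing is read from their size. Among the other 12953 genes ranked, those whose pattern was most like the mean of the 8 included HID1 (r = 0.97), METTL21B (0.96), ATG4A (0.94) and CCPG1 (0.94), over the same 24 libraries and with no test. Their rho with that mean ran from 0.65 (ATG4A) to 0.90 (CCPG1). HID1 takes part in secretory granule formation, METTL21B methylates a translation elongation factor, ATG4A is an autophagy protease and CCPG1 is a receptor for autophagy of the endoplasmic reticulum. HID1 went from 8.44 to 22.2 CPM with Dox in Tet-MIST1 and lay between 5.07 and 6.43 CPM in the other groups. CCPG1 went from 15.4 to 36.0 CPM, METTL21B from 12.8 to 26.8 CPM and ATG4A from 21.3 to 46.8 CPM.

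The 9 genes lie on 9 different chromosomes. The nearest tested gene on each side of each of them was examined in Tet-MIST1 to see whether a change extended to its neighborhood. Of these 18 genes 3 were called, 1 higher and 2 lower, against 20.6% of all genes. XKR8, 305 bases beyond SMPDL3B, rose by 0.16 (SE 0.0505, FDR 0.0395 in the quasi-likelihood test), a call that was lost with library size alone. TMEM159, next to CRYM at 77.9 kb, changed by -0.31 (SE 0.0521, FDR 0.00202), and NFX1, 70.0 kb from AQP3, by -0.19 (SE 0.0553, FDR 0.0312). Other neighbors at close range did not pass, among them HIBCH 1.15 kb from C2orf88 at 0.16 (FDR 0.0960) and PMEL 82 bases from DGKA at 0.27 (FDR 0.163). CRYM-AS1 overlaps CRYM on the opposite strand but shares no exon bases with it, and it was at 0.729 ± 0.106 CPM in Control and 0.626 ± 0.106 CPM with Dox (log2 change -0.20, FDR 0.438).

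**Figure D5:**
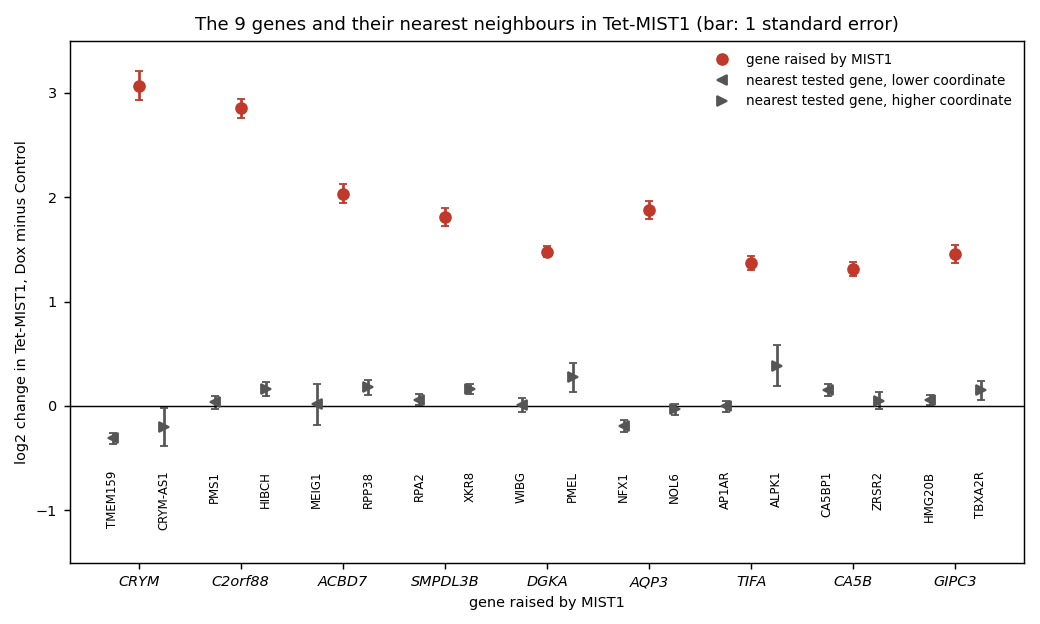
Change with Dox in Tet-MIST1 of the 9 genes (red circles) and of the nearest tested gene on each side (gray triangles), as log2 change with 1 standard error. The 18 neighbors lie between -0.31 and 0.39. The 9 genes were chosen for large changes in this comparison, so nothing is read from their lying above.

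Genes that work with the 9 were examined as 9 lists, one per gene and without the gene itself, 206 genes in all. In Tet-MIST1, 31 of 153 tested were called (20.3%), 15 higher and 16 lower, beside 20.6% of all genes, and the median log2 change was -0.03. The changes of the 153 genes ran from -0.51 to 0.72 on the log2 scale. The 9 genes were chosen for large changes in this comparison, so nothing is read from their larger values. In Tet-PTF1a 90 of 159 were called (56.6%), 37 higher and 53 lower, beside 48.2% of all genes, and in Tet-One 0 of 152.

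By list, the changes in Tet-MIST1 were as follows, each gene named being the called gene with the largest change in its direction at a mean of at least 1 CPM. Of thyroid hormone and ketimine genes (CRYM) 0 of 11 tested rose and 2 fell, DIO3, a deiodinase that inactivates thyroid hormone, among them at -0.50 (FDR 0.00241), and in Tet-PTF1a at -2.49. Of 18 A-kinase anchoring proteins and kinase A subunits (C2orf88) 1 rose, the anchoring protein AKAP9 at 0.41 (FDR 0.00508), and 5 fell, led by the regulatory subunit PRKAR2B at -0.41 (FDR 0.0427). Of 16 genes of acyl-CoA binding proteins, synthetases and thioesterases (ACBD7) 2 rose and 0 fell, with ACBD4, of the same domain family as ACBD7, at 0.72 (FDR 2.04e-04). ACBD4 in Tet-PTF1a was at -0.10 (FDR 0.400).

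Of 25 sphingomyelin and ceramide genes (SMPDL3B) 2 rose and 2 fell, the sphingomyelinase SMPD2 at 0.27 (FDR 0.00908) and the sphingosine phosphate lyase SGPL1 at -0.26 (FDR 0.00835). None of the 18 diacylglycerol kinase and phosphatidate genes tested (DGKA) rose and 3 fell, led by the kinase DGKH at -0.23 (FDR 0.0387). Of 6 aquaporin and glycerol genes (AQP3) 1 rose, GPD1L, a relative of glycerol phosphate dehydrogenase, at 0.54 (FDR 4.35e-05). Of 14 carbonic anhydrases and biotin carboxylases (CA5B) 2 rose, with pyruvate carboxylase (PC) at 0.50 (FDR 2.32e-04), which takes up bicarbonate in mitochondria. Of 29 TRAF and NF-κB genes (TIFA) 4 rose and 3 fell, the adaptors TRAF5 at 0.62 (FDR 1.68e-04) and TRAF3 at -0.23 (FDR 0.00932). ALPK1, the kinase upstream of TIFA and its neighbor at 11.4 kb, was at 0.39 (FDR 0.166). Of 16 GIPC and myosin VI genes (GIPC3) 3 rose and 1 fell, the endocytic adaptor DAB2 at 0.53 (FDR 0.00726) and the motor MYO6 at -0.20 (FDR 0.0190). DAB2 also rose in Tet-PTF1a, by 0.62 (FDR 7.80e-07). Each FDR here comes from the edgeR quasi-likelihood test and was adjusted over all genes tested in that line.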

How the data were processed

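Polyadenylated RNA of 24 Panc-1 libraries was analysed, 4 per group, grouped by their sample titles. The authors deposited, per line, raw read counts per gene, a signal column per library (CPM scaled by the authors, used here only to check that it follows the counts) and the exon length of each gene. The submitters' processing notes name TopHat, HTSeq, DESeq, edgeR and hg19, without their roles, and the counting annotation and use of strand are not given in the sources used here. Columns with the authors' own comparisons (3 per table: fold changes and p-values) were not used. There were 0 further sample columns. Genes whose names had turned into dates (18, 18 and 20 per table) were kept out of joins between tables.

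Counts were analysed with edgeR 4.0.16 in R 4.3.3 (TMM scaling, robust quasi-likelihood test, prior count 2, genes above 0.5 CPM in at least 4 libraries, Benjamini-Hochberg FDR under 0.05). Dox was tested within each line, baselines over the 12 Control libraries, and the difference of Dox responses with the libraries of both lines. The standard error is the size of the log2 change fitted without the prior count, divided by the square root of F. The 95% intervals are centered on the log2 change with the prior count and use the degrees of freedom of the test. CPM levels are counts brought to a common depth by TMM over the 24 libraries, and figures were drawn with matplotlib 3.10.9. Same-numbered Control and Dox libraries did not deviate together (correlations -0.24 to 0.18), so numbers were not used as pairs. Alternatives were library size alone, DESeq2 1.42.0, other filters, all 24 libraries in one fit, the replicate block and each library left out. No pair of replicates agreed within counting noise (chi-square per degree of freedom 1.39 to 238 over 36 pairs), and depth limits precision for genes near the counting floor, CRYM above all. The tests were run on simulated counts with the same spread for all genes and lines and no library standing apart. That check does not cover the Tet-One tests or the difference of responses, which hold such a library.

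The 9 genes and all lists were chosen with earlier results of these data known. Named besides the 9 were the nearest tested gene on each side of each gene, the 5 genes most similar in pattern with a mean of at least 1 CPM, and the called gene with the largest change in each direction per pathway list at the same minimum. Genes that these rules or the marker lists give and the text does not name are not reported here. Promoter windows came from RefSeq.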

Additional observations from a re-analysis of the deposited data

Results flagged for a closer look

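Of 52 groups of 4 libraries examined, 4 held a library far from the other 3, where chance gives about 1 in 20. CRYM was highest in Tet-One Control replicate 3 at 0.0743 CPM (others 0.0511 to 0.0532, all on 2 or 3 counts) and in Tet-MIST1 Control replicate 3 at 0.538 CPM (others 0.403 to 0.419). AQP3 was highest in Tet-One Dox replicate 1 at 2.29 CPM (others 1.48 to 1.59), the library that stood apart. CA5B was lowest in Tet-One Dox replicate 2 at 3.53 CPM (others 3.76 to 3.77).

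The response to Dox differed between Tet-PTF1a and Tet-One by 0.77 for C2orf88 (FDR 0.00138 in edgeR's quasi-likelihood test), 0.80 for GIPC3 (FDR 0.0424), 0.47 for TIFA (FDR 0.0249) and -0.39 for CA5B (FDR 0.0463), on the log2 scale. Of 16 fits that each left out a library, CA5B missed the threshold in 12, GIPC3 in 10, TIFA in 4 and C2orf88 in 0.

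DGKA, AQP3 and CA5B had no overlap between Dox and Control in Tet-MIST1 or Tet-PTF1a and moved in opposite directions in them. Of all genes tested in Tet-PTF1a, 21.8% had Dox wholly below Control and 42.1% had no overlap in either direction. In Tet-MIST1, 14.3% had Dox wholly above Control and 26.8% had no overlap in either direction. The share of all genes with both patterns was not counted. The log2 change of DGKA was -0.32 in Tet-PTF1a and 1.48 in Tet-MIST1, that of AQP3 was -0.87 and 1.88, and that of CA5B was -0.42 and 1.31. These differences between lines were not tested, because Tet-MIST1 chose the genes.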

How the results depend on the processing

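The 4 baseline calls (TIFA, CA5B, GIPC3 and DGKA) kept their side of the threshold in all alternatives run for them. Over all genes, Tet-MIST1 calls went from 2812 to 1463 with the replicate block, to 1703 with all 24 libraries in one fit, and to between 1436 (without Control replicate 3) and 3770 (without Dox replicate 2) with a library left out. Tet-PTF1a calls went from 6775 to 3128 with all 24 libraries. Tet-One calls ranged from 0 to 1, the latter without Dox replicate 1. The difference of responses passed for 4 genes, for 1 (C2orf88) with the replicate block and for 1 (without Tet-One Control replicate 4) to 5 (without Tet-One Dox replicate 1) with a library left out, and over all genes for 1393 (without Tet-PTF1a Control replicate 4) to 4146 (without Tet-One Dox replicate 1) against 1738. The block changed no other call among the 9 genes, and 1 of 12 pairs correlated best with its own number. CATCTG was present for 2 genes in the longer windows against 1. The cause of these shifts was not tested.

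Changes near 0 that did not pass changed sign. In Tet-One with library size alone, C2orf88 was at -0.022 and ACBD7 at -0.011. With a library left out, C2orf88 ranged from -0.072 to 0.052, ACBD7 from -0.069 to 0.14, AQP3 from -0.21 to 0.016 and CA5B from -0.037 to 0.029 in Tet-One, and at baseline (Tet-PTF1a minus Tet-One) ACBD7 ranged from -0.21 to 0.011 and SMPDL3B from -0.036 to 0.18. Scaling by library size alone for the levels and similar genes was added after seeing the data, and 4 of the 5 similar genes stayed among the 5. AQP3 was not tested in Tet-PTF1a where 10 counts were required in every library. Depth limits CRYM most, with 2 to 4 counts per Tet-One library.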
